A study of Sus scrofa with 10 samples.

Results

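Class II antigen presentation genes were followed in pig liver (Sus scrofa) in liver failure that followed hepatectomy and in its treatment with a bioartificial liver, an extracorporeal device in which blood meets cultured liver cells. The set of 10 genes was defined by name as SLA-DRA, SLA-DRB1, SLA-DQA1, SLA-DQB1, SLA-DMA, SLA-DMB, SLA-DOA, SLA-DOB, CD74 and CIITA, where SLA is the swine leukocyte antigen complex, and the row with the highest mean was taken for each symbol. Of these, 5 stood in the deposited table of 31905 genes under their own symbol (SLA-DQB1, SLA-DMA, SLA-DMB, SLA-DOA and CIITA). CD74 was found through its gene identifier (ENSSSCG00000033262) in a reference table of names, and SLA-DRA and SLA-DOB stood in the table under the human symbols HLA-DRA (ENSSSCG00000001453) and HLA-DOB (ENSSSCG00000001459). SLA-DRB1 and SLA-DQA1 were matched to no row and are not analysed here, so 8 of 10 genes are described.

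The 10 libraries fall into 5 groups. hiHepD8 holds 2 libraries from day 8 of treatment with a device filled with human induced hepatocytes (hiHep), cells with hepatocyte features obtained by reprogramming other human cells, and hiHepD4 holds 1 library from day 4 of that treatment. EmptyBAL holds 2 libraries from day 3 with a device that held no cells, NoBAL 2 libraries from day 2 of liver failure without a device, and Control 3 libraries of normal liver on day 0. All pigs were labelled wild type; breed, age and sex are not given in the sources used here. Whether the libraries of a group stem from different animals is not in the labels, and p-values therefore reflect how far libraries vary, which may be no more than technical variation. Day and treatment changed together in every comparison and cannot be told apart.

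Class II molecules are pairs of an alpha and a beta chain that carry peptides from the endosome to the cell surface, where CD4+ T cells read them. The invariant chain CD74 holds the new pair together and blocks its groove, the DM pair (SLA-DMA and SLA-DMB) exchanges the blocking fragment for peptide, and the DO pair (SLA-DOA and SLA-DOB) restrains DM. CIITA is the transactivator that switches these genes on together. In healthy liver they are known chiefly from Kupffer cells (the resident macrophages), dendritic cells, B cells and sinusoidal endothelium rather than from hepatocytes, although the labels name hepatocyte as the cell type beside liver as the tissue. In the RefSeq annotation of the Sscrofa11.1 build the SLA members lie close together on chromosome 7, from SLA-DRA at 24825037 to 24830650 through SLA-DQB1 at 24969034 to 24977238, SLA-DOB at 25030435 to 25038196, SLA-DMB at 25119278 to 25125089 and SLA-DMA at 25133494 to 25137928 to SLA-DOA at 25178866 to 25182665. CD74 lies on chromosome 2 at 151402210 to 151409924 and CIITA on chromosome 3 at 32171706 to 32230775.

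The deposited values are FPKM, in which fragments are divided by gene length and by library total, so levels of different genes can be set side by side. They summed to between 439925 and 829970 per library, and the depth of the libraries is unknown. Replicates correlated at 0.99 in Control and in hiHepD8 (Pearson r of log2(FPKM + 1) across genes), at 0.95 in NoBAL and at 0.88 in EmptyBAL. All tests are limma's on log2(FPKM + 1), which understates the change of low genes, with p adjusted by Benjamini-Hochberg over the 12180 genes that reached 1 FPKM in 2 or more libraries, and a gene was called at an adjusted p under 0.05. All 8 genes described entered the test. Because the replicates of Control and of hiHepD8 were this close, each of these groups was also averaged to 1 sample. In that fit, with 2 residual degrees of freedom instead of 5, limma called none of the 8 genes in any comparison, 0 to 7 of them had an unadjusted p under 0.05, and 0 to 692 of all genes were called, depending on the comparison.

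CIITA, the class II transactivator, was at 4.43 and 4.19 FPKM in hiHepD8, 0.874 in hiHepD4, 11.0 and 4.23 in EmptyBAL, 1.59 and 0.777 in NoBAL, and 3.40, 2.85 and 3.23 in Control. The NoBAL libraries and hiHepD4 lay under all others, and EmptyBAL replicate 1 stood far above its partner.

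SLA-DRA, the alpha chain of the DR molecule, was at 33.0 and 36.5 FPKM in hiHepD8, 9.71 in hiHepD4, 26.5 and 69.1 in EmptyBAL, 15.1 and 21.2 in NoBAL, and 44.7, 47.2 and 41.7 in Control. The EmptyBAL libraries lay on either side of the Control range. SLA-DQB1, the beta chain of the DQ molecule, was at 29.6 and 30.8 FPKM in hiHepD8, 7.31 in hiHepD4, 80.4 and 92.5 in EmptyBAL, 18.2 and 11.4 in NoBAL, and 50.9, 45.9 and 48.9 in Control. No 2 of the 5 groups overlapped for SLA-DQB1. Its levels are uncertain to the extent that reads were shared with the pseudogene SLA-DQB2, which RefSeq places beside it, and the sources used here do not say how such reads were counted.

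CD74 was the most abundant member by far, at 526 and 531 FPKM in hiHepD8, 251 in hiHepD4, 1661 and 1104 in EmptyBAL, 572 and 278 in NoBAL, and 481, 472 and 481 in Control. The NoBAL libraries spanned the Control and hiHepD8 values, whereas both EmptyBAL libraries were above every other library.

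The DM peptide editor is built from an alpha and a beta chain. SLA-DMA was at 23.4 and 20.7 FPKM in hiHepD8, 5.45 in hiHepD4, 28.7 and 35.3 in EmptyBAL, 14.3 and 12.3 in NoBAL, and 25.9, 26.0 and 29.2 in Control. SLA-DMB was at 7.28 and 7.35 FPKM in hiHepD8, 1.63 in hiHepD4, 21.3 and 14.7 in EmptyBAL, 3.27 and 3.40 in NoBAL, and 5.32, 5.16 and 4.95 in Control. For SLA-DMB no groups overlapped and hiHepD8 lay above Control, while for SLA-DMA hiHepD8 lay below Control and EmptyBAL overlapped it.

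The DO pair was the least abundant. SLA-DOA was at 1.93 and 1.99 FPKM in hiHepD8, 0.223 in hiHepD4, 2.19 and 1.90 in EmptyBAL, 0.624 and 0.214 in NoBAL, and 1.21, 1.08 and 1.05 in Control. SLA-DOB was at 0.311 and 0.439 FPKM in hiHepD8, 0.173 in hiHepD4, 2.37 and 1.07 in EmptyBAL, 0.344 and 0.396 in NoBAL, and 1.69, 1.57 and 1.50 in Control. The chains of this pair parted in hiHepD8, where SLA-DOA lay within the range of EmptyBAL, while the SLA-DOB libraries lay on either side of the NoBAL range and below Control.

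**Figure D1:**
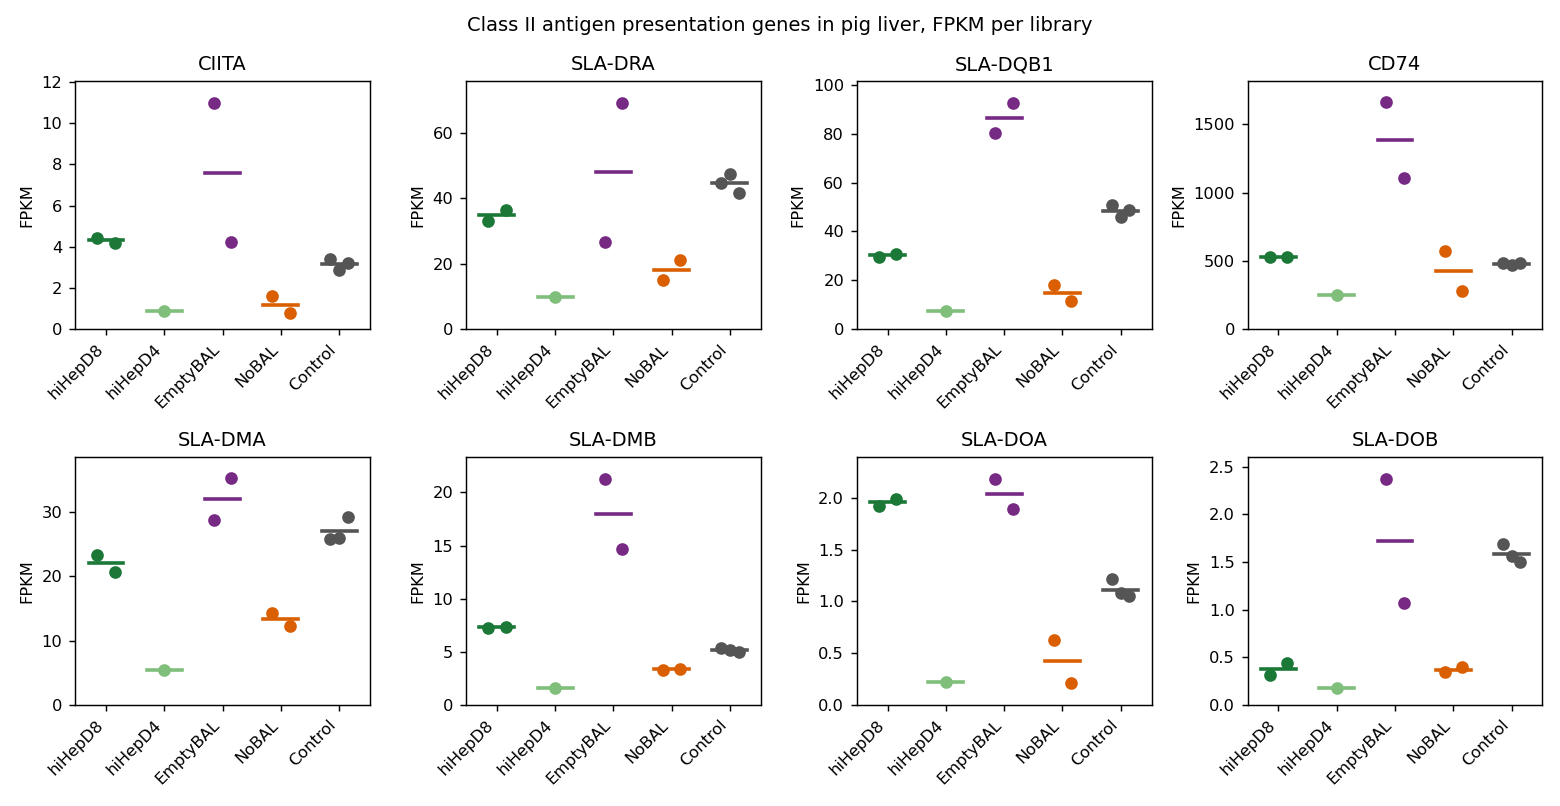
FPKM of the 8 class II genes (vertical axes, from 0) in each library, by group; points are libraries and bars are group means. EmptyBAL has the highest mean and hiHepD4 the lowest value of the group means in all 8 panels, with CD74 reaching 1661 FPKM and SLA-DOB staying under 2.5.

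Ordered by mean, the groups ran EmptyBAL, Control, hiHepD8, NoBAL and hiHepD4 for SLA-DRA, SLA-DQB1, SLA-DMA and SLA-DOB, and EmptyBAL, hiHepD8, Control, NoBAL and hiHepD4 for SLA-DMB, SLA-DOA, CD74 and CIITA. The highest library of each gene was an EmptyBAL library, replicate 1 for 5 genes and replicate 2 for the other 3. The lowest was hiHepD4 for 6 genes and NoBAL replicate 2 for SLA-DOA and CIITA. Between the highest and the lowest library the level differed 6.47-fold for SLA-DMA at the least and 14.1-fold for CIITA at the most.

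NoBAL was compared with Control to find what accompanies liver failure. In NoBAL 7 of the 8 genes fell and none rose, in a comparison in which limma called 24.2% of all genes tested lower. SLA-DQB1 averaged 14.8 ± 4.81 FPKM in NoBAL and 48.5 ± 2.53 in Control (SD, n = 2 and 3), a log2 change of -1.68 ± 0.21 (SE, limma adjusted p = 0.00048). SLA-DMA was at -0.97 ± 0.16 (limma adjusted p = 0.0021) and SLA-DOB at -0.91 ± 0.20 (limma adjusted p = 0.0065). SLA-DOA, SLA-DRA, SLA-DMB and CIITA fell by 0.59, 1.27, 0.50 and 0.95 on the log2 scale, with limma adjusted p of 0.013, 0.022, 0.039 and 0.043. The order of these changes rests on the pseudocount: with 0.1 in place of 1, SLA-DOB was at -1.84 and SLA-DOA at -1.35 (limma adjusted p = 0.0037 and 0.015), and SLA-DOB then exceeded SLA-DQB1, at -1.74. CD74 did not pass, with a mean of 425 ± 208 FPKM in NoBAL and 478 ± 4.97 in Control and a log2 change of -0.26 ± 0.34 (limma adjusted p = 0.54), and it was the only member whose libraries overlapped between the groups; those of 7 members did not, nor did those of 74.1% of all genes. Without NoBAL replicate 1 the change of CD74 was -0.78, and without NoBAL replicate 2 it was 0.26. Over the 8 genes the median log2 change was -0.93, against 0.04 over all genes tested. Fewer cells of a type and less RNA per cell cannot be told apart in RNA of whole tissue. Without any 1 of the Control libraries 4 genes were called, all lower, where 2328 to 2354 of all genes were called lower.

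EmptyBAL was compared with Control to set failing livers on a device without cells against normal liver. Here 5 of 8 genes rose and none fell, where 24.4% of all genes were called higher. SLA-DMB averaged 18.0 ± 4.65 FPKM in EmptyBAL and 5.14 ± 0.18 in Control (SD, n = 2 and 3), a log2 change of 1.61 ± 0.17 (limma adjusted p = 2e-04). CD74 averaged 1382 ± 394 FPKM in EmptyBAL and 478 ± 4.97 in Control, a log2 change of 1.50 ± 0.34 (limma adjusted p = 0.0071). The libraries of the groups did not overlap for the 5 genes called, nor for 72.7% of all genes. CIITA rose by 0.93, SLA-DQB1 by 0.82 and SLA-DOA by 0.52 on the log2 scale (limma adjusted p = 0.044, 0.012 and 0.019). With a pseudocount of 0.1, CIITA was at 1.09 and SLA-DOA at 0.82, and neither was called (limma adjusted p = 0.059 and 0.082). SLA-DMA, SLA-DOB and SLA-DRA were not called, at log2 changes of 0.23, 0.03 and -0.05 (limma adjusted p = 0.27, 0.90 and 0.92). For SLA-DRA the change was 0.63 without EmptyBAL replicate 1 and -0.73 without EmptyBAL replicate 2, so each library alone pointed in its own direction. SLA-DOB was at 0.38 without EmptyBAL replicate 2. Without Control replicate 2 or 3 the number called was 3, where 2312 and 2282 of all genes were called higher.

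EmptyBAL differed from NoBAL at every member. All 8 genes were higher in EmptyBAL, where 12.6% of all genes tested were called higher, and for all 8 the libraries of the groups did not overlap, against 59% of all genes. SLA-DQB1 averaged 86.5 ± 8.57 FPKM in EmptyBAL and 14.8 ± 4.81 in NoBAL (SD, n = 2 each), a 5.83-fold difference of means and a log2 change of 2.50 ± 0.23 (limma adjusted p = 0.0013). SLA-DMB differed 5.39-fold (log2 change 2.11 ± 0.18, limma adjusted p = 0.0011), CIITA 6.42-fold (1.88 ± 0.36, limma adjusted p = 0.0093) and CD74 3.25-fold (1.76 ± 0.37, limma adjusted p = 0.012). The other 4 genes had log2 changes of 0.95 to 1.21 with limma adjusted p of 0.0044 to 0.048, the highest p being that of SLA-DRA. With a pseudocount of 0.1, SLA-DOA was at 2.17 and SLA-DOB at 1.86 (limma adjusted p = 0.0079 and 0.012). The median log2 change of the 8 genes was 1.49, against -0.14 over all genes. FPKM is relative to the library total, and hepatocyte markers summed to 3816 and 7718 FPKM in EmptyBAL and 24744 and 16846 in NoBAL. How far this enters the class II difference was not tested. More cells of a type and more RNA per cell cannot be told apart here. Fitted on these 4 libraries alone, limma called none of the 8 genes and 0 genes in all, while 7 of the 8 had an unadjusted p under 0.05.

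hiHepD8 was compared with NoBAL to set day 8 of treatment with the cell-filled device against failure without a device. The higher members were CIITA, SLA-DOA, SLA-DQB1, SLA-DMB and SLA-DMA, 5 of 8, with none lower; 22.5% of all genes were called higher. CIITA averaged 4.31 ± 0.17 FPKM in hiHepD8 and 1.18 ± 0.57 in NoBAL (SD, n = 2 each), a log2 change of 1.31 ± 0.36 (limma adjusted p = 0.019). SLA-DOA differed by 1.07 ± 0.16, SLA-DQB1 by 1.01 ± 0.23, SLA-DMB by 0.94 ± 0.18 and SLA-DMA by 0.69 ± 0.18 on the log2 scale (limma adjusted p = 0.0014, 0.0084, 0.0047 and 0.016). With a pseudocount of 0.1, SLA-DOA differed by 2.11 (limma adjusted p = 0.0035). SLA-DRA, at 0.92 ± 0.40 (limma adjusted p = 0.093), and CD74, at 0.41 ± 0.37 (limma adjusted p = 0.39), were not called, although both SLA-DRA libraries of hiHepD8 lay above both of NoBAL. CD74 was at 0.92 without NoBAL replicate 1. Groups did not overlap at 6 of the 8 genes, against 79.5% of all genes. SLA-DOB averaged 0.375 ± 0.090 FPKM in hiHepD8 and 0.370 ± 0.037 in NoBAL, and its log2 change of 0.0037 ± 0.22 was not called (limma adjusted p = 0.99). The median log2 change of the 8 genes was 0.966 without hiHepD8 replicate 1 and 0.889 without hiHepD8 replicate 2.

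hiHepD8 and EmptyBAL differ in whether the device held cells, and also in the day of sampling. SLA-DQB1, CD74, SLA-DMB and SLA-DOB were lower in hiHepD8, 4 of 8, with none higher; 17.6% of all genes were called lower. SLA-DQB1 averaged 30.2 ± 0.84 FPKM in hiHepD8 and 86.5 ± 8.57 in EmptyBAL (log2 change -1.48 ± 0.23, limma adjusted p = 0.002), and CD74 averaged 529 ± 3.37 FPKM in hiHepD8 and 1382 ± 394 in EmptyBAL (-1.36 ± 0.37, limma adjusted p = 0.022). SLA-DMB differed by -1.17 ± 0.18 and SLA-DOB by -0.94 ± 0.22 on the log2 scale (limma adjusted p = 0.0023 and 0.011). With a pseudocount of 0.1, SLA-DOB differed by -1.85 (limma adjusted p = 0.0079). SLA-DMA, CIITA, SLA-DRA and SLA-DOA were not called, at -0.52, -0.58, -0.30 and -0.04 (limma adjusted p = 0.053, 0.24, 0.57 and 0.87). Groups did not overlap at the 4 genes called and at SLA-DMA, 5 of 8, against 71.5% of all genes. Without EmptyBAL replicate 1, SLA-DRA was at -0.98 and SLA-DMA at -0.66. Without EmptyBAL replicate 2, CIITA was at -1.17. The median log2 change of the 8 genes was -0.742 without hiHepD8 replicate 1 and -0.776 without hiHepD8 replicate 2.

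hiHepD8 against Control shows how the day 8 livers stood relative to normal liver. The members split by direction: SLA-DOB and SLA-DQB1 were lower and SLA-DOA was higher, 3 of 8 called where 32.2% of all genes were, 15.1% higher and 17.1% lower. SLA-DOB averaged 0.375 ± 0.090 FPKM in hiHepD8 and 1.58 ± 0.094 in Control (log2 change -0.91 ± 0.20, limma adjusted p = 0.01). SLA-DQB1 differed by -0.67 ± 0.21 (limma adjusted p = 0.043) and SLA-DOA by 0.49 ± 0.15 (limma adjusted p = 0.041). With a pseudocount of 0.1, SLA-DOB differed by -1.84 (limma adjusted p = 0.0068) and SLA-DOA, at 0.76, was not called (limma adjusted p = 0.14). The other 5 genes had log2 changes of -0.35 to 0.44 with limma adjusted p of 0.085 to 0.78. All 8 had libraries that did not overlap, 4 above Control and 4 below, as did 80% of all genes. Without any 1 of the Control libraries only SLA-DOB was called, where 1380 to 1412 of all genes were called lower. The median log2 change of the 8 genes was -0.0641 without hiHepD8 replicate 1 and -0.031 without hiHepD8 replicate 2.

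**Figure D2:**
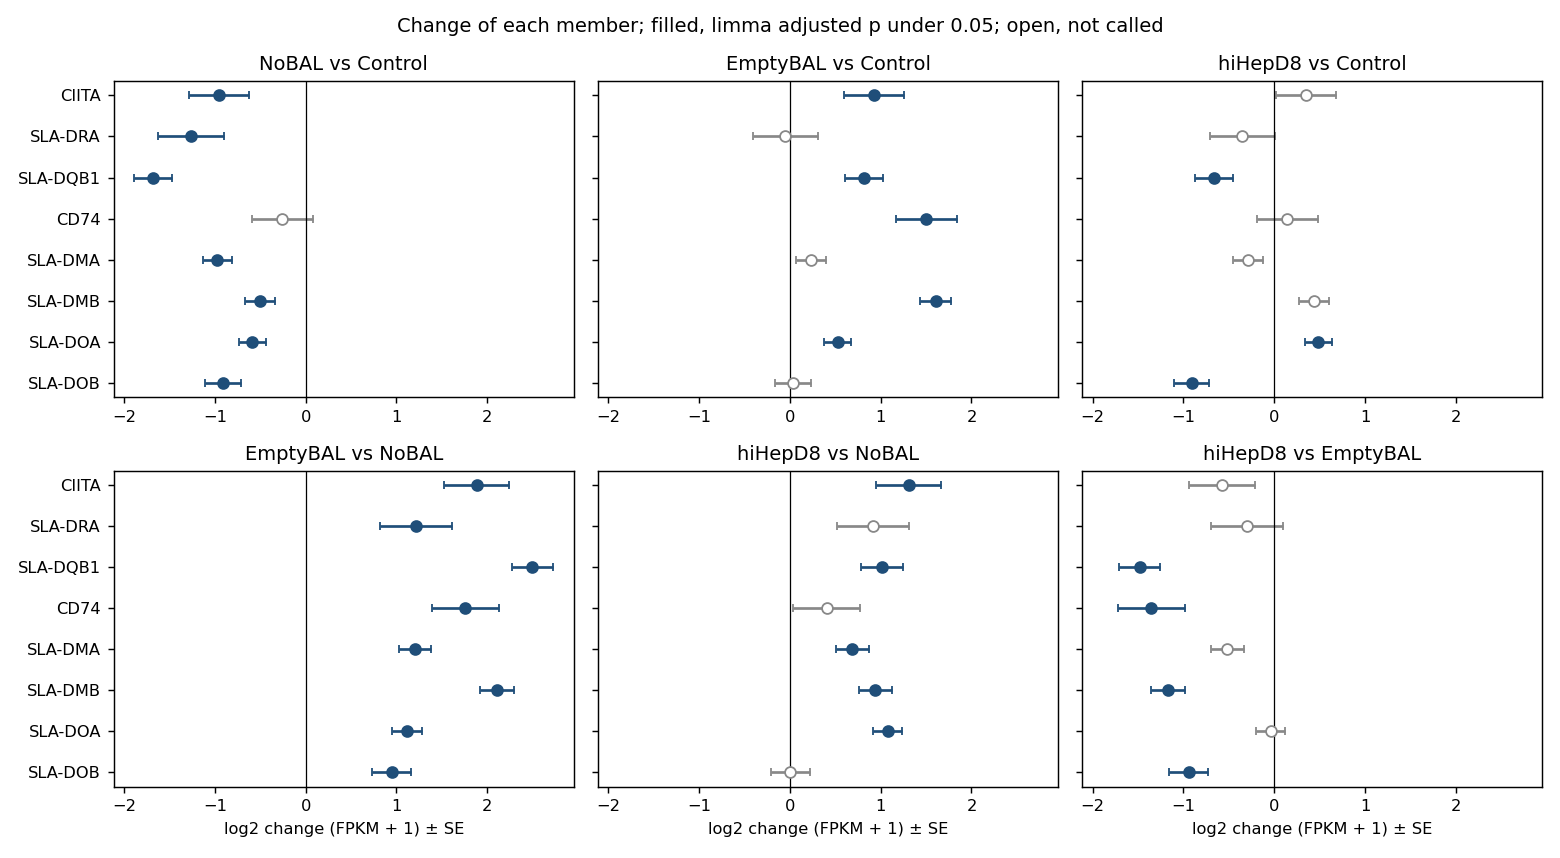
log2 change of each class II gene (horizontal axes) in 6 comparisons, with limma's SE as bars; filled points have an adjusted p under 0.05 and open points do not. NoBAL against Control lies left of 0 for all 8 genes, EmptyBAL against NoBAL lies right of 0 for all 8, and hiHepD8 against Control is spread on both sides.

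The Control, NoBAL, EmptyBAL and hiHepD8 libraries each serve in 3 of these comparisons, so the comparisons are not independent of each other. Upper-quartile scaling moved the median change of all genes to 0.162 in EmptyBAL against Control, against -0.0252 as deposited. For hiHepD8 against Control it was 0.154, against -0.0166, for EmptyBAL against NoBAL 0.0655, against -0.144, and for hiHepD8 against NoBAL 0.161, against -0.0315. The share of called genes that were higher was then 57.6%, 62.4%, 65.5% and 60.6% in those comparisons, against 45.4%, 46.9%, 37% and 47.5%. Class II calls under that scaling are given with the number of all 12180 genes called in the same direction. They were 7 lower in NoBAL against Control (3017), 6 higher in EmptyBAL against Control (3898) and 8 higher in EmptyBAL against NoBAL (2258). In hiHepD8 they were 5 higher against NoBAL (3500), 5 lower against EmptyBAL (2339), and 2 higher and 1 lower against Control (2594 and 1565). TMM scaling (trimmed mean of M-values) gave medians of 0.0594 and 0.0273 in EmptyBAL and hiHepD8 against Control, with 51% and 51.3% of calls higher. Against NoBAL they were -0.0352 and 0.0353, with 50.2% and 52.2% higher. Class II calls were then 5 higher in EmptyBAL against Control (3364), and 1 higher and 1 lower in hiHepD8 against Control (2012 and 1909). The other class II counts were the same under both scalings.

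The single hiHepD4 library had the least class II RNA. It lay below every hiHepD8, every EmptyBAL and every Control library at 8 of 8 genes, and below both NoBAL libraries at 6 of 8. Of all genes tested, 42.8%, 34.3%, 41.4% and 38.7% lay below every library of those groups. Relative to the Control mean hiHepD4 ranged from 0.109 for SLA-DOB through 0.151 for SLA-DQB1 and 0.202 for SLA-DMA to 0.524 for CD74. The median log2 difference of the 8 genes was -1.58 from hiHepD8, -2.21 from EmptyBAL, -0.70 from NoBAL and -1.19 from Control, against 0.07, 0.11, -0.02 and 0.03 over all genes. With upper-quartile or TMM scaling the counts of genes below every library of each group were the same, 8, 8, 8 and 6. Being 1 library, hiHepD4 has no replicate check and was not tested.

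The members did not keep fixed proportions. CD74 exceeded SLA-DRA 16.0- and 14.6-fold in hiHepD8, 25.8-fold in hiHepD4, 62.7- and 16.0-fold in EmptyBAL, 37.9- and 13.1-fold in NoBAL, and 10.8-, 9.999- and 11.5-fold in Control. All libraries with liver failure thus lay above the Control range, and within EmptyBAL and NoBAL it was replicate 1 that stood out. CD74 exceeded SLA-DQB1 17.8- and 17.2-fold in hiHepD8, 34.3-fold in hiHepD4, 20.6- and 11.9-fold in EmptyBAL, 31.4- and 24.3-fold in NoBAL, and 9.44-, 10.3- and 9.85-fold in Control.

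In hiHepD8 the DM ratio was lower and the DO ratio higher than in Control. SLA-DMA exceeded SLA-DMB 3.21- and 2.81-fold in hiHepD8, 3.35-fold in hiHepD4, 1.35- and 2.40-fold in EmptyBAL, 4.37- and 3.62-fold in NoBAL, and 4.87-, 5.04- and 5.90-fold in Control, so the excess of the alpha chain was highest in normal liver. The ratio of SLA-DOA to SLA-DOB was 6.19 and 4.53 in hiHepD8, 1.28 in hiHepD4, 0.923 and 1.78 in EmptyBAL, 1.81 and 0.541 in NoBAL, and 0.720, 0.688 and 0.702 in Control. Only in hiHepD8 did both libraries exceed 2. These ratios are descriptions without a test, and those of the DO pair rest on values near or under 1 FPKM.

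**Figure D3:**
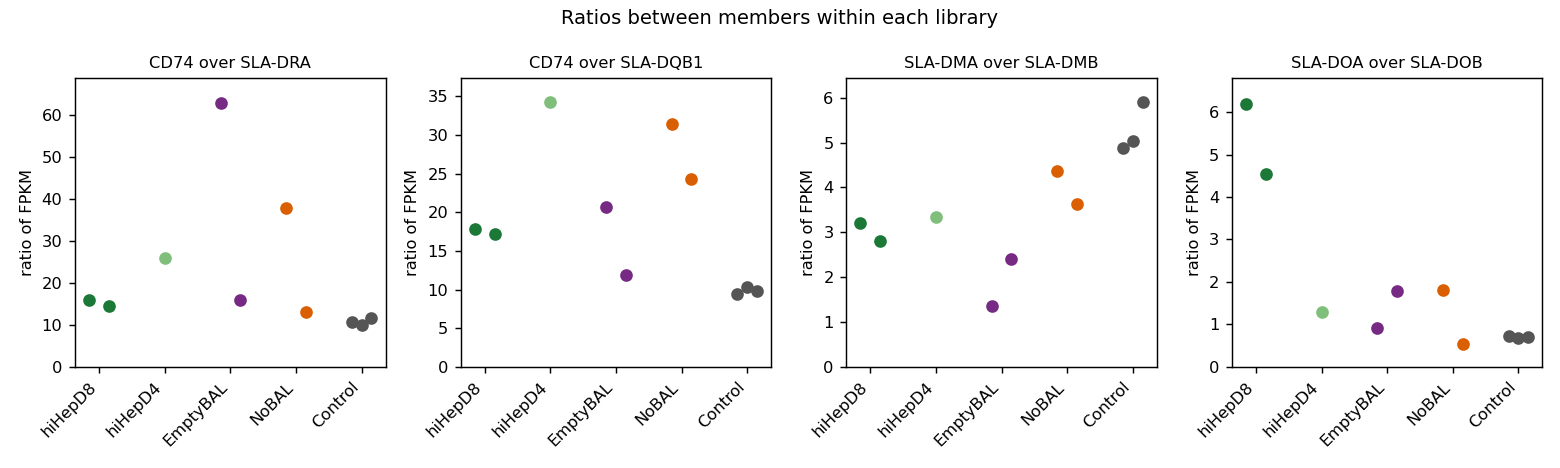
Ratio of FPKM between 2 class II genes within each library (vertical axes, from 0), by group; points are libraries. The ratio of SLA-DOA to SLA-DOB is 6.19 and 4.53 in hiHepD8 and under 2 in every other library, and CD74 exceeds SLA-DRA 62.7-fold in EmptyBAL replicate 1.

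Across the 10 libraries the 28 pairs of members had a Pearson r of log2(FPKM + 1) from 0.46 to 0.95, with a median of 0.80, given as a description since replicates of a group share their condition. SLA-DQB1 with SLA-DMA was the closest pair and SLA-DRA with CD74 the least close (r = 0.46), followed by SLA-DOA with SLA-DOB (r = 0.47).

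Partners of CIITA at class II promoters are the RFX complex, the NF-Y complex, CREB1 and the coactivators CREBBP and EP300. Of 9 such genes listed, 8 were matched and tested, all but RFXAP. Of these 4 fell and 1 rose in NoBAL against Control, 4 fell and 2 rose in EmptyBAL against Control, none was called in EmptyBAL against NoBAL, 2 were higher in hiHepD8 than in NoBAL, 3 higher than in EmptyBAL, and 1 was higher and 1 lower than in Control. Of all 12180 genes tested, 3068 rose and 2953 fell in NoBAL against Control, and 2967 rose and 3573 fell in EmptyBAL against Control. In EmptyBAL 1535 were higher and 2611 lower than in NoBAL. In hiHepD8 2740 were higher and 3024 lower than in NoBAL, 2751 and 2144 than in EmptyBAL, and 1839 and 2084 than in Control. Counts of this and the later lists are to be read beside these numbers, and no list was tested as a set. On the scale of log2(FPKM + 1) the coactivator CREBBP had the largest changes of the list against Control in NoBAL and EmptyBAL. It was at 17.0 FPKM in both libraries of hiHepD8, 9.69 in hiHepD4, 4.48 and 5.33 in EmptyBAL, 4.37 and 5.73 in NoBAL, and 15.1, 16.4 and 14.4 in Control. Its log2 change was -1.44 ± 0.16 in NoBAL and -1.47 ± 0.16 in EmptyBAL, each against Control (limma adjusted p = 0.00027 and 0.00022). CREBBP was thus low in EmptyBAL, where class II RNA was highest, and its part in class II levels was not tested. CREB1 was lower than in Control in both (log2 changes -1.06 and -1.39, limma adjusted p = 0.0015 and 0.00038), and RFX5, the DNA-binding subunit of the RFX complex, fell in NoBAL (-0.47 ± 0.15, limma adjusted p = 0.034). The pseudocount of 1 understates the change of CREB1, which averaged 0.682 FPKM in EmptyBAL and 3.41 in Control. By fold of these means it fell more than CREBBP, at 4.90 and 15.3.

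Interferon gamma is the classical inducer of CIITA, acting through its receptor, receptor-bound kinases and, further on, IRF1, and IRF8 and SPI1 (PU.1) are transcription factors of antigen-presenting myeloid and B cells. Of 10 genes listed, all were matched and 9 tested; IFNG itself was listed at 0 or below 0.15 FPKM in every library. IRF1 was at 6.48 and 6.89 FPKM in hiHepD8, 10.8 in hiHepD4, 36.2 and 21.7 in EmptyBAL, 6.04 and 8.38 in NoBAL, and 91.3, 97.0 and 84.4 in Control. It fell by 3.50 ± 0.24 on the log2 scale in NoBAL, by 1.66 ± 0.24 in EmptyBAL and by 3.58 ± 0.24 in hiHepD8, each against Control (limma adjusted p = 3.5e-05, 0.00085 and 5.8e-05). The IRF1 levels of hiHepD8 lay within those of NoBAL (log2 change -0.08 ± 0.26, limma adjusted p = 0.82). CIITA was called higher in that comparison, and a link between IRF1 and CIITA was not tested. Of the 9 genes tested, 2 fell in NoBAL against Control, 2 rose and 2 fell in EmptyBAL against Control, 3 were higher in EmptyBAL than in NoBAL, 1 was higher and 2 lower in hiHepD8 than in NoBAL, 4 were lower in hiHepD8 than in EmptyBAL and 5 lower than in Control. IRF8 was at 14.9 and 14.2 FPKM in hiHepD8, 14.7 in hiHepD4, 78.7 and 40.2 in EmptyBAL, 15.4 and 12.1 in NoBAL, and 29.7, 34.3 and 30.6 in Control, and was called lower in NoBAL and higher in EmptyBAL against Control (log2 changes -1.15 and 0.82, limma adjusted p = 0.0099 and 0.036). SPI1 was at 17.2 and 14.4 FPKM in hiHepD8, 112 in hiHepD4, 314 and 91.3 in EmptyBAL, 63.8 and 20.4 in NoBAL, and 17.3, 18.8 and 18.9 in Control. In hiHepD4 SPI1 was thus above Control while all 8 class II genes were below it, and a link between them was not tested.

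Endosomal proteases cut the invariant chain and the antigens, and IFI30 is the thiol reductase that opens disulfide bonds of antigens there. All 11 genes listed were tested. In EmptyBAL against NoBAL 5 were higher and 1 lower, in EmptyBAL against Control 4 and 3, in NoBAL against Control 2 and 3, in hiHepD8 against EmptyBAL 2 and 7, in hiHepD8 against NoBAL 1 and 2, and in hiHepD8 against Control 1 and 2. Cathepsin S (CTSS), the main protease of the invariant chain in antigen-presenting cells, was at 38.5 and 37.0 FPKM in hiHepD8, 22.0 in hiHepD4, 146 and 78.9 in EmptyBAL, 11.0 and 25.7 in NoBAL, and 37.8, 37.1 and 38.0 in Control. It fell in NoBAL (-1.11 ± 0.36, limma adjusted p = 0.036) and rose in EmptyBAL (1.49 ± 0.36, limma adjusted p = 0.01), each against Control, and in hiHepD8 it differed from Control by 0.00 ± 0.36. IFI30 was at 25.7 and 28.2 FPKM in hiHepD8, 18.3 in hiHepD4, 131 and 78.6 in EmptyBAL, 28.6 and 16.9 in NoBAL, and 7.58, 8.76 and 7.32 in Control. Unlike the 8 class II genes, none of which rose in NoBAL, IFI30 rose there (1.38 ± 0.28, limma adjusted p = 0.005). It also rose in EmptyBAL (3.53 ± 0.28 against Control, limma adjusted p = 5.7e-05), where it was higher than in NoBAL (2.15 ± 0.31, limma adjusted p = 0.0041). CTSF, which can cut the invariant chain in macrophages, fell by 2.63 ± 0.26 in NoBAL and by 1.51 ± 0.26 in EmptyBAL against Control (limma adjusted p = 0.00018 and 0.0022), and was not called in hiHepD8 (-0.08 ± 0.26, limma adjusted p = 0.85).

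**Figure D4:**
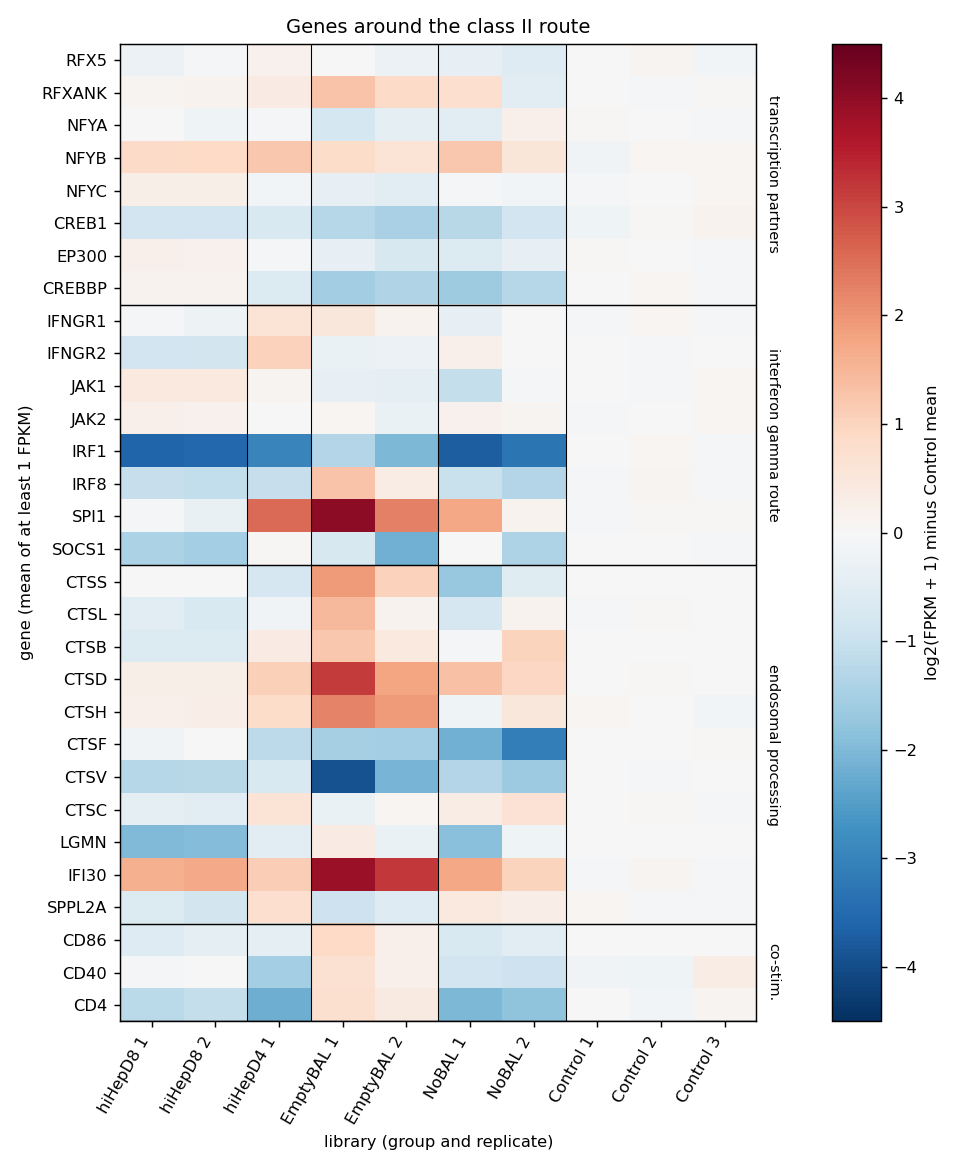
log2(FPKM + 1) minus the Control mean (colour) for genes of the class II route that are reported here and have a mean of at least 1 FPKM (rows) in each library (columns, by group and replicate). CTSS, CTSD, CTSH and IFI30 are highest in EmptyBAL, IRF1 is below Control in every library of the other 4 groups, and CREBBP is low in EmptyBAL and NoBAL.

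At the cell surface, CD40, CD80 and CD86 are co-stimulatory molecules of antigen-presenting cells, and CD4 and LAG3 bind class II. Of 10 genes listed 9 were matched and 5 tested, and the others were under 1 FPKM in every library. In NoBAL against Control 4 of the 5 fell, in EmptyBAL against NoBAL all 5 were higher, and in hiHepD8 against EmptyBAL 3 were lower. CD4 was at 1.73 and 2.01 FPKM in hiHepD8, 0.384 in hiHepD4, 9.55 and 7.49 in EmptyBAL, 0.557 and 0.820 in NoBAL, and 5.38, 4.87 and 5.97 in Control, and no 2 groups overlapped. Its log2 change was -1.92 ± 0.16 in NoBAL against Control (limma adjusted p = 7.7e-05) and 2.49 ± 0.17 in EmptyBAL against NoBAL (limma adjusted p = 0.00066). MARCHF1 and MARCHF8, ubiquitin ligases that take class II off the surface, CD83, which opposes MARCHF1, and MFGE8 made up a list of 6 entries for surface turnover, the other 2 being older symbols, and all 4 genes were tested. Of these 3 fell in NoBAL against Control, 1 rose and 2 fell in EmptyBAL against Control, 3 were higher in EmptyBAL than in NoBAL, 1 was higher in hiHepD8 than in NoBAL, 2 were lower in hiHepD8 than in EmptyBAL and 1 lower than in Control. CD83 was at 1.33 and 1.01 FPKM in hiHepD8, 0.765 in hiHepD4, 10.4 and 4.09 in EmptyBAL, 0.508 and 1.57 in NoBAL, and 33.0, 34.6 and 33.1 in Control. It fell against Control in NoBAL, EmptyBAL and hiHepD8 (log2 changes -4.13, -2.18 and -4.00, limma adjusted p = 8.5e-05, 0.0015 and 0.00018).

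The class I route, which presents peptides made in the cytosol, was set beside class II. Of 16 genes listed 8 were matched, among them no SLA class I heavy chain, and all 8 were tested. Unlike class II, 2 rose and 2 fell in NoBAL against Control (median log2 change 0.00). In EmptyBAL against Control 4 rose and none fell, in EmptyBAL against NoBAL 3 were higher, in hiHepD8 against NoBAL 2 were lower, in hiHepD8 against EmptyBAL 5 were lower and in hiHepD8 against Control 2 were lower. B2M, the light chain of class I, fell by 0.94 ± 0.26 on the log2 scale in NoBAL against Control (limma adjusted p = 0.017), whereas the immunoproteasome subunit gene PSMB10 rose by 1.58 ± 0.49 (limma adjusted p = 0.03). PSMB8, which lies in the same complex on the chromosome as the SLA genes in mammals, was at 16.7 and 12.1 FPKM in hiHepD8, 23.4 in hiHepD4, 97.1 and 44.8 in EmptyBAL, 18.4 and 13.0 in NoBAL, and 14.0, 17.8 and 19.3 in Control.

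Markers of the cells that carry class II moved with it in part, and their part in the results was not tested. Of 14 macrophage markers 13 were matched and tested, and their summed level was 882 to 888 FPKM in hiHepD8, 1104 in hiHepD4, 1041 to 1291 in EmptyBAL, 246 to 469 in NoBAL and 1119 to 1225 in Control. In NoBAL against Control 6 fell and none rose. In EmptyBAL against Control 7 rose and 1, CD14, fell, with a median log2 change of 1.46, although the sums of these groups overlapped. In EmptyBAL against NoBAL 11 were higher and none lower, in hiHepD8 against NoBAL 7 were higher and 1 lower, in hiHepD8 against EmptyBAL 1 was higher and 7 lower, and in hiHepD8 against Control 3 were higher and 1 lower. CD163, a scavenger receptor of macrophages named after its values were seen, was at 42.1 and 45.7 FPKM in hiHepD8, 26.9 in hiHepD4, 84.0 and 108 in EmptyBAL, 11.06 and 10.36 in NoBAL, and 12.76, 13.12 and 12.01 in Control. MARCO, also named after its values were seen, went the other way in hiHepD8, at 1.48 and 1.01 FPKM. It was called lower there than in NoBAL and Control (log2 changes -2.37 and -1.58, limma adjusted p = 0.0041 and 0.023). C1QB and C1QC, complement genes of tissue macrophages, had log2 changes of -2.41 ± 0.30 and -2.43 ± 0.31 in NoBAL against Control and of 2.92 ± 0.33 and 2.83 ± 0.34 in EmptyBAL against NoBAL. CD14 made up much of the sum and went another way, at 843 FPKM in hiHepD4 and 90.8 and 167 in EmptyBAL, against 711, 752 and 680 in Control. LYZ, also a macrophage marker, was listed at 0 in hiHepD8 and EmptyBAL.

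Of 10 dendritic cell markers 6 were matched and tested, with a summed level of 8.27 to 8.32 FPKM in hiHepD8, 38.1 in hiHepD4, 11.3 to 26.6 in EmptyBAL, 5.72 to 12.1 in NoBAL and 7.38 to 9.90 in Control. In hiHepD4 the transcription factor gene BATF3 gave 34.9 FPKM of that sum, while XCR1, CCR7 and FCER1A were under 1 FPKM. In NoBAL against Control 2 of 6 fell, in EmptyBAL against Control 2 rose, in EmptyBAL against NoBAL 3 were higher, in hiHepD8 against NoBAL 1 was higher, in hiHepD8 against EmptyBAL 2 were lower and in hiHepD8 against Control 1 was lower. Of 8 B cell markers 7 were matched and 4 tested; MS4A1 and PAX5 were under 1 FPKM in every group, and CD79A, at 19.2 to 54.2 FPKM over the libraries, made up most of the sum of 23.4 to 25.5 FPKM in hiHepD8, 25.7 in hiHepD4, 36.8 to 61.7 in EmptyBAL, 28.7 to 55.0 in NoBAL and 24.3 to 27.8 in Control. CD79A and its partner gene CD79B, at 0.104 to 1.93 FPKM, were thus far apart in level. Of the 4 B cell markers tested 1 rose and 2 fell in NoBAL against Control, 2 rose in EmptyBAL against Control, 3 were higher in EmptyBAL than in NoBAL, none was called in hiHepD8 against NoBAL, 2 were lower in hiHepD8 than in EmptyBAL and 1 lower than in Control.

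T and NK cell markers had 13 of 14 genes matched and 11 tested. They summed to 25.6 to 25.8 FPKM in hiHepD8, 22.7 in hiHepD4, 59.0 to 88.2 in EmptyBAL, 11.6 to 11.9 in NoBAL and 35.1 to 38.2 in Control, and the groups did not overlap. In NoBAL against Control 10 of 11 fell, in EmptyBAL against Control 3 rose and 2 fell, in EmptyBAL against NoBAL 10 were higher, in hiHepD8 against NoBAL 6 were higher, and 8 were lower in hiHepD8 than in EmptyBAL and 8 lower than in Control. Neutrophil markers, 4 of 7 matched and tested, were at 1.67 to 2.21 FPKM in hiHepD8, 65.7 in hiHepD4, 103 to 627 in EmptyBAL, 26.9 to 233 in NoBAL and 1.01 to 2.22 in Control; 3 of the 4 rose in NoBAL and 3 in EmptyBAL, each against Control. Endothelial markers, 9 of 11 matched and tested, were at 185 FPKM in both hiHepD8 libraries, 61.8 in hiHepD4, 189 to 236 in EmptyBAL, 87.1 to 120 in NoBAL and 292 to 323 in Control; 1 rose and 3 fell in NoBAL against Control, 2 rose and 2 fell in EmptyBAL against Control, and 3 were higher in EmptyBAL than in NoBAL. The sinusoidal endothelial lectin gene CLEC4G was at 46.3 and 46.4 FPKM in hiHepD8, 9.54 in hiHepD4, 36.8 and 97.4 in EmptyBAL, 7.65 and 2.29 in NoBAL, and 211, 233 and 203 in Control. It made up most of the Control sum, and the list did not move as 1. PECAM1 was at 26.5 and 56.6 FPKM in NoBAL and 17.9, 19.4 and 18.8 in Control (log2 change 1.02 ± 0.51, limma adjusted p = 0.13). STAB1 fell in the same comparison (-1.96 ± 0.31, limma adjusted p = 0.0016). Hepatocyte markers, 8 of 9 matched and tested, summed to 24098 to 24176 FPKM in hiHepD8, 40601 in hiHepD4, 3816 to 7718 in EmptyBAL, 16846 to 24744 in NoBAL and 87170 to 89929 in Control, lowest in EmptyBAL, where class II was highest. In NoBAL against Control 5 of the 8 fell, and in EmptyBAL 4 were lower than in NoBAL and all 8 lower than in Control. Cholangiocyte markers, 5 of 6 tested, summed to 54.1 to 57.4 FPKM in hiHepD8, 69.1 in hiHepD4, 303 to 624 in EmptyBAL, 61.5 to 80.6 in NoBAL and 36.1 to 38.2 in Control, and all 7 stellate cell markers were tested and summed to 140 FPKM in hiHepD4 and to 315 to 830 in the other groups.

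**Figure D5:**
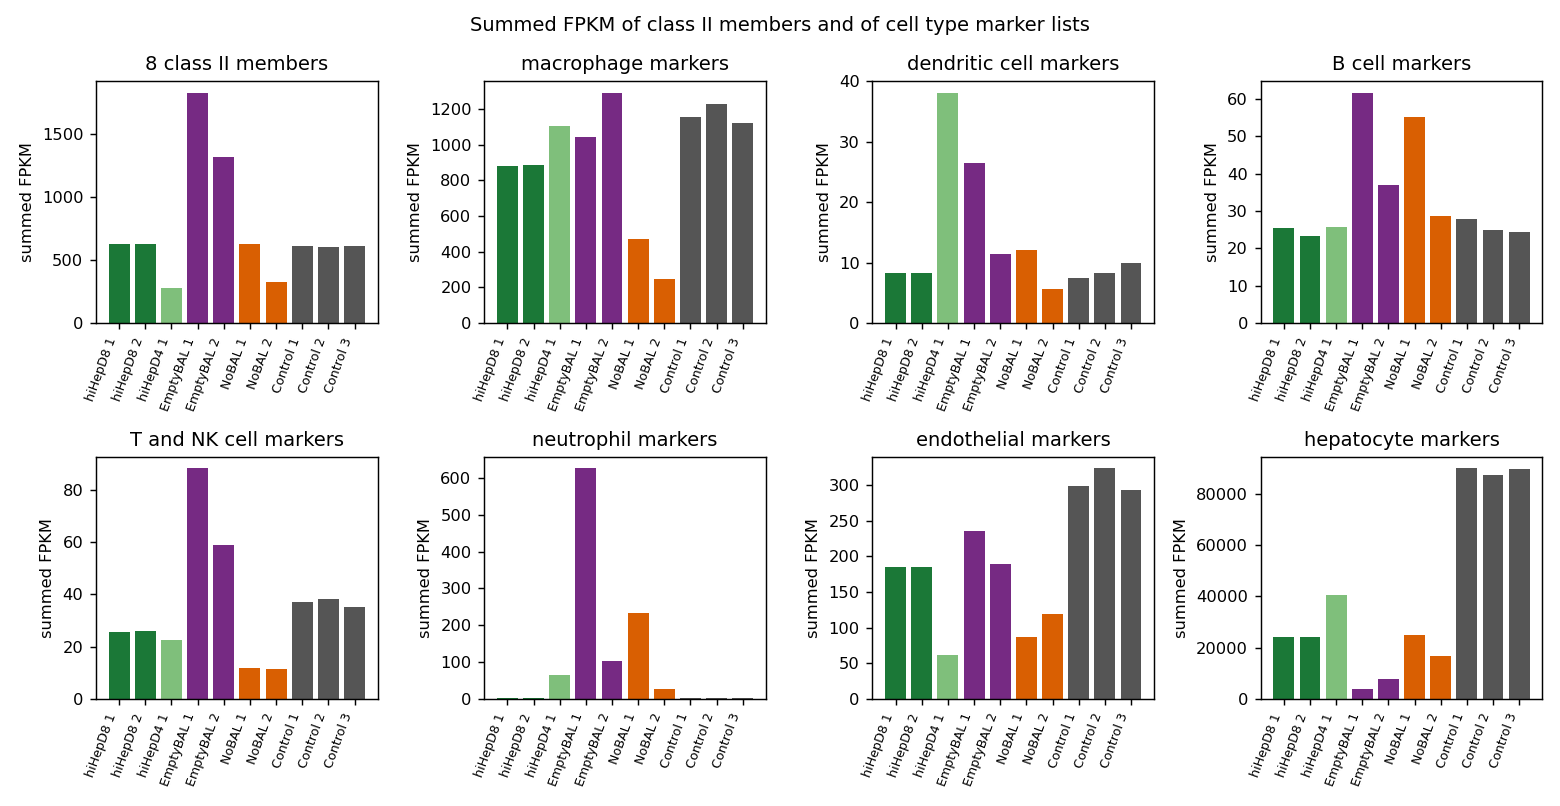
Summed FPKM of the 8 class II genes and of 7 lists of cell type markers in each library (vertical axes, from 0; bars are libraries, coloured by group). Class II reaches 1833 and 1323 FPKM in EmptyBAL, where hepatocyte markers are lowest, and NoBAL has the lowest macrophage and T and NK cell sums.

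The genes most like the class II set were found by correlating log2(FPKM + 1) with the mean of the members' standardised values over the 10 libraries, among the 6497 named genes whose mean reached 5 FPKM. The 8 closest were C14orf180 (r = 0.99), C1QTNF1 (0.98), ANXA13 and CD40 (both 0.96), PAOX (0.96), CXCR4 (0.95), PLD4 (0.95) and NME3 (0.95). C14orf180 was at 7.97 and 8.01 FPKM in hiHepD8, 2.04 in hiHepD4, 22.1 and 15.4 in EmptyBAL, 3.49 and 3.01 in NoBAL, and 10.1, 11.0 and 10.8 in Control. CD40, the co-stimulatory receptor, was at 8.30 and 8.69 FPKM in hiHepD8, 2.30 in hiHepD4, 14.5 and 10.3 in EmptyBAL, 4.35 and 4.09 in NoBAL, and 7.61, 7.46 and 11.3 in Control. CXCR4 is a chemokine receptor of leukocytes. These r values describe 10 libraries in 5 groups and are given without a test.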

How the data were processed

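RNA of pig liver was measured in 10 libraries, per the labels' protocols by Trizol extraction and paired-end TruSeq sequencing on an Illumina HiSeq instrument. The authors deposited 1 table of FPKM per gene; of tools, the submitters' processing notes list Cufflinks, HISAT2 and HTSeq, and of builds mm10 (mouse) and Sscrofa11.1 (pig), with no roles. Among genes at low values, a single ratio between libraries held for 38 of 1839 and 37 of 2233 genes (pairs within Control and hiHepD8, tolerance 0.1%), so whole fragments were not recovered and depth is unknown. Symbols came from the table (16497 genes) or by gene identifier from a reference table (851).

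limma 3.58.1 in R 4.3.3 fitted log2(FPKM + 1) of all 10 libraries with a mean per group and a mean-variance trend, two-sided, with 5 residual and 2.7 prior degrees of freedom. SDs are of FPKM, SEs are limma's. Upper-quartile and TMM (trimmed mean of M-values) factors were computed from the FPKM. The script was tested on simulated data. Tables and figures were made with Python 3.11.15, pandas 2.3.3 and matplotlib 3.10.9.

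The members, lists and settings were chosen with earlier results of these data known. Every member is named. Of the class I and marker lists the 3 most abundant genes and markers at or under 1 FPKM could be named, and of the other lists any gene. CD163 and MARCO were named outside this rule. Values of some listed genes are not reported here, though the genes count in their lists.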

Additional observations from a re-analysis of the deposited data

How the results depend on the processing

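Of 678 recomputed member changes 530 kept direction and side of the threshold, 117 lost and 20 gained a call and 11 turned in sign. Leaving out 1 library at a time, 4 to 5 members were called in NoBAL against Control, 3 to 7 in EmptyBAL against Control, 7 to 8 in EmptyBAL against NoBAL, 2 to 6 in hiHepD8 against NoBAL, 2 to 5 in hiHepD8 against EmptyBAL and 0 to 1 in hiHepD8 against Control; a lone library left in a group is then assumed to vary like the other groups. With Control and hiHepD8 averaged to 1 sample each, 0 were called in every comparison, with 2, 1, 7, 1, 3 and 0 at an unadjusted p under 0.05 in the same order. A filter of 5 FPKM, which removes the low members, left 4, 3, 5 and 3 calls in the first 4 comparisons. Of the 8330 genes tested then, 2145 were called lower in the first and 2798, 893 and 1757 higher in the others. In hiHepD8 against Control this filter left 1 call, lower as were 1630 of all genes. No filter also left 1 there, lower as were 2145 of 21549 genes. With a pseudocount of 0.1 or 0.01 EmptyBAL against Control had 3, where 2933 and 2881 of all genes were called higher. Fits on the compared groups alone called 8 in hiHepD8 against Control, where 8402 of all 12170 genes were called. They called 0 in EmptyBAL against NoBAL, where 0 of all genes were called. In hiHepD8 against EmptyBAL they called 1, where 2360 of all 12174 genes were called. The cause was not tested. Among the 5 members listed under their own symbol, a choice made after seeing the data, 5 were called in EmptyBAL against NoBAL and 2 in hiHepD8 against EmptyBAL.

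Between samples of the same replicate number, deviations from the group means correlated at -0.08 to 0.13. In groups of 2 libraries the deviations mirror each other, so this cannot decide whether replicate numbers pair the samples. A replicate block called 3 in EmptyBAL against Control and 1 in hiHepD8 against Control, and kept the other counts within 1.5 times. Of all genes it called 5035 instead of 6540 in EmptyBAL against Control and 2341 instead of 3923 in hiHepD8 against Control. In EmptyBAL against NoBAL it called 2502 of all genes instead of 4146.

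Changes that turned in sign were not called as reported. With a library left out, SLA-DRA ran from -0.73 to 0.63 in EmptyBAL against Control and from -0.98 to 0.38 in hiHepD8 against EmptyBAL; in the first it was 0.20 with upper-quartile and 0.058 with TMM scaling. Likewise SLA-DOB ran from -0.063 to 0.071 in hiHepD8 against NoBAL, with -0.024 without NoBAL replicate 1, and from -0.32 to 0.38 in EmptyBAL against Control. CD74 ran from -0.78 to 0.26 in NoBAL against Control and from -0.11 to 0.92 in hiHepD8 against NoBAL, and in hiHepD8 against EmptyBAL SLA-DOA ran from -0.11 to 0.029 and CIITA from -1.17 to 0.020.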
